A study of Mus musculus with 12 samples.

Results

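Serine and one-carbon metabolism was followed through 10 genes, Phgdh, Psat1, Psph, Shmt1, Shmt2, Mthfd1, Mthfd2, Aldh1l1, Aldh1l2 and Gldc, which were picked by name out of a table of 22053 genes. All 10 were found. Of these, 9 passed the filter on low values used for testing (1 FPKM or more in at least 4 mice), as did 13148 genes in all, and Aldh1l2 did not pass because it stayed under 1 FPKM in every mouse. FPKM are fragment numbers divided by transcript length and by the mapped reads of the library, so that levels of different genes can be set side by side per length.

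Cells make serine from a glycolytic intermediate through the enzymes encoded by Phgdh, Psat1 and Psph. Serine hydroxymethyltransferases then split serine into glycine and a one-carbon unit carried on folate, and this unit is oxidised or reduced by parallel sets of enzymes in the cytosol and in mitochondria before it is spent on purines, thymidylate, methionine or formate. The kidney is an organ of net serine production, with much of its serine synthesis and glycine breakdown in the proximal tubule.

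The study sequenced mRNA from whole kidneys of 12 wild-type C57BL/6 mice, with 4 mice in each of 3 groups. CKD mice ate a 0.2% adenine diet from 8 to 16 weeks of age, which causes tubulointerstitial kidney damage, and had weekly intraperitoneal PBS. CKD+Fe mice ate the same diet and had weekly intraperitoneal iron dextran at 0.5 g/kg. Control mice ate the matching diet without adenine and had PBS. Mice are named here by the numbers in their labels, and no label names a batch.

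Whole kidney carried the markers of its cell types, and these shifted strongly with the diet. The FPKM of 13 proximal tubule markers summed to between 70417 and 94975 in control mice and to between 1817 and 8876 in CKD mice, with 12 of the 13 lower and none higher by the test used below. Kap is among these 13 markers and made up most of the sum in control mice, so the sums mainly follow Kap. The 8 macrophage markers summed to 109 to 229 in control mice and 1655 to 3428 in CKD mice, all 8 of them higher. In whole tissue, fewer cells of a type and less RNA per cell cannot be told apart. Kap alone took 10.6 to 12.7% of all FPKM in control mice and 0.188 to 1.7% in the other 8 mice, and the median gene stood 0.50 higher in CKD than in control mice on the log2(FPKM + 1) scale. Rescaling each mouse by the median of ratios brought that median to 0.01, and values are given on this scale too where a call differs. Control mouse 042301, CKD mouse 110310 and CKD+Fe mouse 042702 lay apart from their groups, with 596, 806 and 442 genes at least 2-fold off the rest of the group. Results that changed without them are given both ways.

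The sequences before the start sites of Shmt2 and Mthfd1, which both fell in CKD, and of Phgdh, the entry enzyme of serine synthesis, are shown for reference. Promoter windows of 250 bases before the RefSeq start (GRCm38.p6) were matched for 9 of the 10 genes, all except Aldh1l2. For Mthfd1 and Gldc, unlike the others, the bases after that start were not found in a sense transcript. The Mthfd1 window also ends short of base 76255298, where the gene is listed here as beginning. The Shmt2 window is chr10:127522445-127522694 on the minus strand, the Mthfd1 window chr12:76254982-76255231 on the plus strand and the Phgdh window chr3:98339970-98340219 on the minus strand. Each is written 5′ to 3′ in the direction of the gene, with CpG sites in capitals for Shmt2 and Mthfd1, and the match to the antioxidant response element in capitals for Phgdh.
Shmt2: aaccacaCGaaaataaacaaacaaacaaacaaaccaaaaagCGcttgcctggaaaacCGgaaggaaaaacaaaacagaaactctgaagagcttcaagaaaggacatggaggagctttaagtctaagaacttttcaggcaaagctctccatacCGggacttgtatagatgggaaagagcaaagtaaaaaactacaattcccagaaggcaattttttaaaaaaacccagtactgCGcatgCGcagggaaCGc
Mthfd1: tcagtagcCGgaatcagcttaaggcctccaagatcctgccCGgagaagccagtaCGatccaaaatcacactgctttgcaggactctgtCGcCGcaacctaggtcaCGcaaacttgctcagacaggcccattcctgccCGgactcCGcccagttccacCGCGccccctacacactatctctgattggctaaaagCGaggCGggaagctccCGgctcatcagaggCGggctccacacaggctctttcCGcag
Phgdh: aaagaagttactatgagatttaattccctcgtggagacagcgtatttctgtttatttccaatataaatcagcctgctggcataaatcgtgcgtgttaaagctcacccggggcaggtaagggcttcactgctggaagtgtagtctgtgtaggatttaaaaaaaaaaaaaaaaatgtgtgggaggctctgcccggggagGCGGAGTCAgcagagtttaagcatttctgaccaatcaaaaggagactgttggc
The Shmt2 window held 7 CpG sites and the Mthfd1 window 15, where the median of 32851 promoters was 6. The Phgdh match, TGACNNNGC read on the other strand, begins 53 bases before the start, and 10.2% of promoters held such a match on either strand. No other window of these genes held it. No match to TGATGNAA, the site of ATF4 with C/EBP proteins (3.45% of promoters), to the E box CACGTG (6.02%) or to the HNF4A site CAAAGTCCA (0.384%) was found in any of the 10 windows, which says only that these letters are not there. The windows of Mthfd2, Aldh1l1, Shmt1 and Psat1 lie wholly inside the spans that the deposited table lists for those genes, and 21 bases of the Phgdh window and 196 of the Psph window do.

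Levels per length spanned a wide range in control kidney. Aldh1l1, which encodes the cytosolic 10-formyltetrahydrofolate dehydrogenase, was the most abundant at 189 ± 23.7 FPKM (SD, n = 4), above 97.6% of genes in the table. Shmt2 followed at 122 ± 18.3 FPKM and Mthfd1 at 71.5 ± 2.85 FPKM, and the ranges of these 3 genes did not overlap. Gldc, Shmt1 and Psat1 came next at 38.5, 27.1 and 23.2 FPKM on average, with ranges that overlapped from each to the next. Psph stood at 13.9 FPKM, below Psat1 without overlap, and the ranges of Psph, Phgdh and Mthfd2 overlapped in turn. In CKD mice the order changed. Aldh1l1 was still the most abundant at 99.1 ± 22.6 FPKM, but Mthfd1, Shmt2, Shmt1, Gldc and Psat1 lay between 36.7 and 26.3 FPKM on average, and each overlapped the next.

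**Figure D1:**
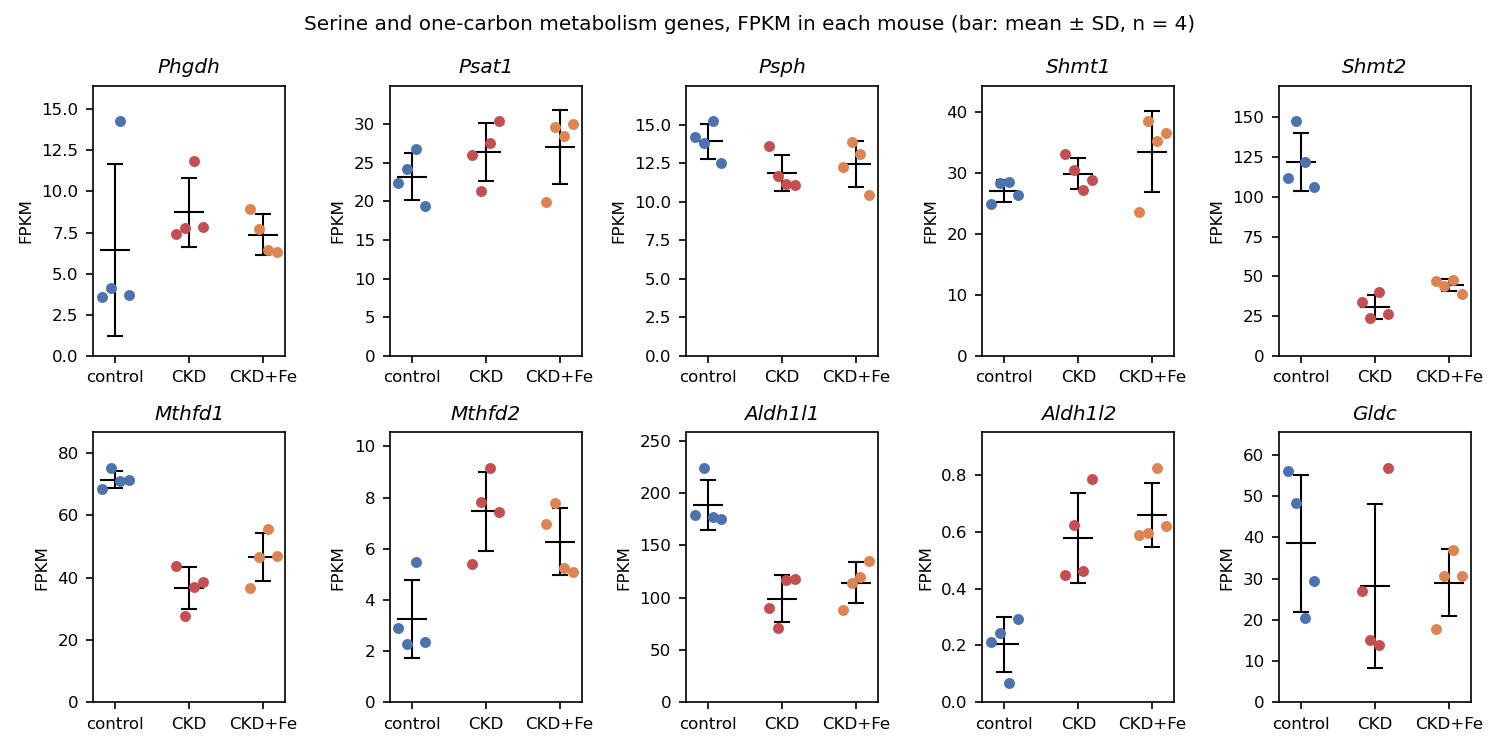
FPKM of the 10 genes (y axis, linear, from 0) in each of 4 control, 4 CKD and 4 CKD+Fe mice (points), with bars for the mean ± SD. Shmt2, Mthfd1 and Aldh1l1 lie lower in all 8 mice on adenine than in any control mouse, while Aldh1l2, under 1 FPKM throughout, lies higher in all 8.

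The first comparison, CKD against control, asks how the adenine diet changed these genes. Shmt2, Mthfd1 and Aldh1l1 fell and Mthfd2 rose among the 9 genes tested (limma, Benjamini-Hochberg adjusted p under 0.05 over 13148 genes). Over all genes tested, 54.6% were called higher and 13.3% lower. No tested member was higher in every CKD mouse than in every control mouse, where 44.6% of all genes were, and 3 members were lower without overlap, where 10.4% of all genes were. The median change of the 9 genes was -0.21, against 0.50 for all genes. After median-of-ratios rescaling 1 member was called higher and 6 lower, with Psph, Shmt1 and Gldc joining the lower ones, where 28.8% of all genes were called higher and 29.3% lower.

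Serine synthesis begins with Phgdh, 3-phosphoglycerate dehydrogenase (ENSMUSG00000053398, chr3:98313170-98339990). Phgdh read 3.55, 4.15, 14.3 and 3.71 FPKM in control mice 012811, 012822, 042301 and 042310. It read 7.41, 7.78, 11.9 and 7.84 FPKM in CKD mice 021320, 022301, 110310 and 120102. Every CKD mouse was above 3 of the 4 control mice, and control mouse 042301 was above all of them. The log2 fold change was 0.58 (SE 0.32, limma adjusted p = 0.122) over all mice and 0.996 (SE 0.17, adjusted p = 0.000318) without control mouse 042301. Rescaling took the first of these to 0.08 (adjusted p = 0.838), and quantile normalization gave -0.15 (adjusted p = 0.713). Without the 3 mice that lay apart Phgdh was called higher (0.85, limma adjusted p = 6.76e-05).

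Control mouse 042301 was also high in collecting duct and papilla genes. Its 9 urothelium and papilla genes summed to 1728 FPKM, against 219 to 458 in the other control mice, and most of that sum came from Aqp2 and Fxyd4. Aqp2, the vasopressin-regulated water channel, read 964 FPKM there and 153 to 285 in the others, and Fxyd4, a sodium pump regulator of the collecting duct, 622 FPKM against 63.1 to 120. Upk1a, a uroplakin of the urothelium, read 3.07 FPKM there and 5.85 FPKM in control mouse 012822. Other marker lists set this mouse apart too. Among control mice it had the highest sums for endothelial (192 FPKM against 102 to 114) and macrophage markers (229 against 109 to 152). It had the lowest for liver markers (621 against 918 to 1219). The part of any of these genes in its Phgdh level was not tested.

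**Figure D2:**
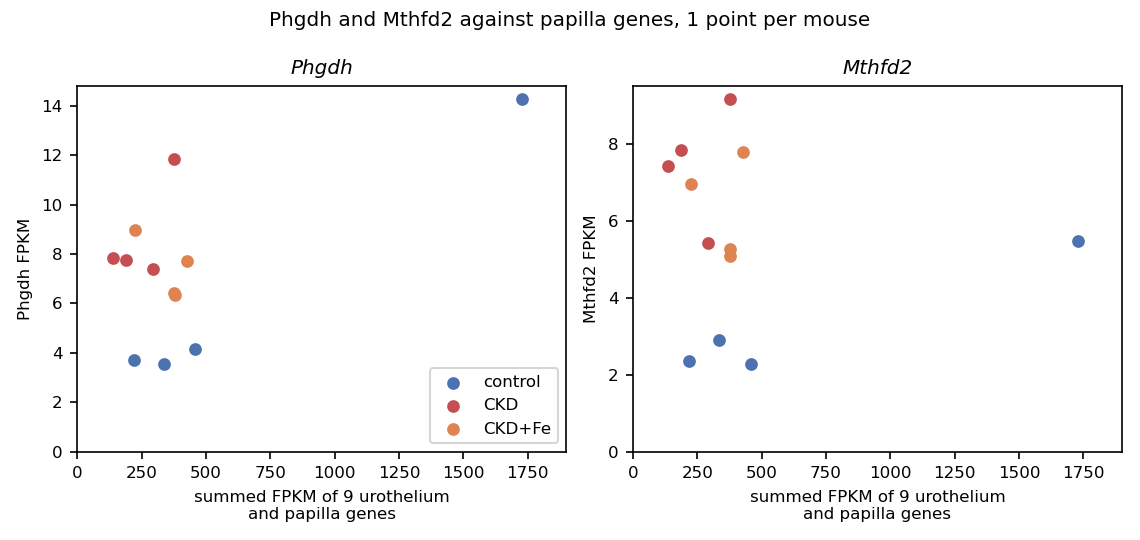
Phgdh and Mthfd2 FPKM (y axes, linear, from 0) against the summed FPKM of 9 urothelium and papilla genes (x axis, linear), 1 point per mouse, coloured by group. Control mouse 042301 stands alone at 1728 summed FPKM, most of it from Aqp2 and Fxyd4, with Phgdh at 14.3 FPKM where the other 3 control mice read 3.55 to 4.15 FPKM.

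The later steps of serine synthesis were not called as deposited. Psat1, phosphoserine aminotransferase (chr19:15904678-15947337), read 22.4, 24.2, 26.8 and 19.5 FPKM in the control mice, in the order above, and 25.96, 21.4, 27.6 and 30.4 FPKM in the CKD mice. The groups overlapped, and the log2 fold change was 0.17 (SE 0.16, limma adjusted p = 0.345), which turned to -0.38 (adjusted p = 0.0738) after rescaling. Psph, phosphoserine phosphatase (chr5:129765558-129787449), read 14.2, 13.8, 15.2 and 12.5 FPKM in control mice and 13.6, 11.6, 11.2 and 11.1 FPKM in CKD mice. Only CKD mouse 021320 overlapped the controls. The log2 fold change of Psph was -0.21 (SE 0.13, limma adjusted p = 0.144), and -0.75 (adjusted p = 0.000212) after rescaling, which is past the threshold.

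Serine hydroxymethyltransferase is made as a mitochondrial form, Shmt2, and a cytosolic form, Shmt1. Shmt2 (ENSMUSG00000025403, chr10:127517123-127522444) read 112, 147, 122 and 106 FPKM in control mice and 33.8, 23.5, 40.2 and 26.2 FPKM in CKD mice. The lowest control mouse was far above the highest CKD mouse. Its log2 fold change of -1.96 (SE 0.17, limma adjusted p = 6.82e-07), or 0.257 of the control level on the FPKM + 1 scale, was the largest of the 9 genes in size. Shmt1 (chr11:60788104-60811718) read 24.9, 28.5, 28.6 and 26.5 FPKM in control mice and 33.1, 30.5, 27.2 and 28.8 FPKM in CKD mice. The groups overlapped, with a log2 fold change of 0.14 (SE 0.15, limma adjusted p = 0.423) as deposited and -0.42 (adjusted p = 0.0337) after rescaling.

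The next enzymes interconvert one-carbon forms of folate. Mthfd1, the trifunctional cytosolic enzyme (ENSMUSG00000021048, chr12:76255298-76319803), read 68.3, 75.2, 70.9 and 71.3 FPKM in control mice and 43.6, 27.6, 36.9 and 38.7 FPKM in CKD mice. Control mice were close to each other and all above the CKD mice. Mthfd1 fell by 0.96 on the log2 scale (SE 0.15, limma adjusted p = 0.000106).

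Mthfd2, the mitochondrial methylenetetrahydrofolate dehydrogenase best known from embryonic and proliferating cells (ENSMUSG00000005667, chr6:83305691-83325908), went the other way. It read 2.90, 2.28, 5.49 and 2.37 FPKM in control mice and 5.42, 7.84, 9.17 and 7.43 FPKM in CKD mice. The overlap came from control mouse 042301, whose 5.49 FPKM was just above the lowest CKD mouse. The log2 fold change was 1.03 (SE 0.22, limma adjusted p = 0.00117), a 2.04-fold rise of FPKM + 1, and 1.25 (SE 0.19, adjusted p = 9.29e-05) without that mouse. It was 0.57 (adjusted p = 0.0469) after rescaling, and 0.23 (adjusted p = 0.432) after quantile normalization, where the call was lost. The 9 cycling cell markers summed to 33.0 to 37.6 FPKM in control mice and 93.7 to 140 FPKM in CKD mice, with all 9 called higher, and their part in the Mthfd2 level was not tested.

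10-Formyltetrahydrofolate dehydrogenase releases the carried carbon as CO2, and it too has a cytosolic form, Aldh1l1, and a mitochondrial form, Aldh1l2. Aldh1l1 (ENSMUSG00000030088, chr6:90486427-90600203) read 179, 224, 177 and 175 FPKM in control mice and 90.7, 71.0, 117 and 118 FPKM in CKD mice. All control mice were above all CKD mice, and Aldh1l1 fell by 0.95 on the log2 scale (SE 0.18, limma adjusted p = 0.000436). Aldh1l2 (ENSMUSG00000020256, chr10:83487450-83534140) read 0.214, 0.245, 0.0665 and 0.292 FPKM in control mice and 0.446, 0.622, 0.463 and 0.783 FPKM in CKD mice.

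Aldh1l2 did not overlap between the groups, with all CKD mice higher, at levels where the pseudocount of 1 holds the fold change down. Tested without the filter on low values, Aldh1l2 had a log2 fold change of 0.39 (SE 0.08, limma adjusted p = 0.00335). Reads in the files cannot be counted, so the precision of such low values is unknown.

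Gldc, the decarboxylase of the glycine cleavage system (chr19:30098447-30175429), had the largest standard error of the 9 genes on the log2 scale. It read 56.1, 48.3, 20.4 and 29.4 FPKM in control mice and 26.9, 15.1, 14.01 and 56.9 FPKM in CKD mice. CKD mouse 120102 was slightly above the highest control mouse. The log2 fold change of -0.56 (SE 0.41, limma adjusted p = 0.239) became -0.96 (SE 0.34, adjusted p = 0.027) without that mouse, past the threshold, and -1.12 (adjusted p = 0.0349) after rescaling.

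**Figure D3:**
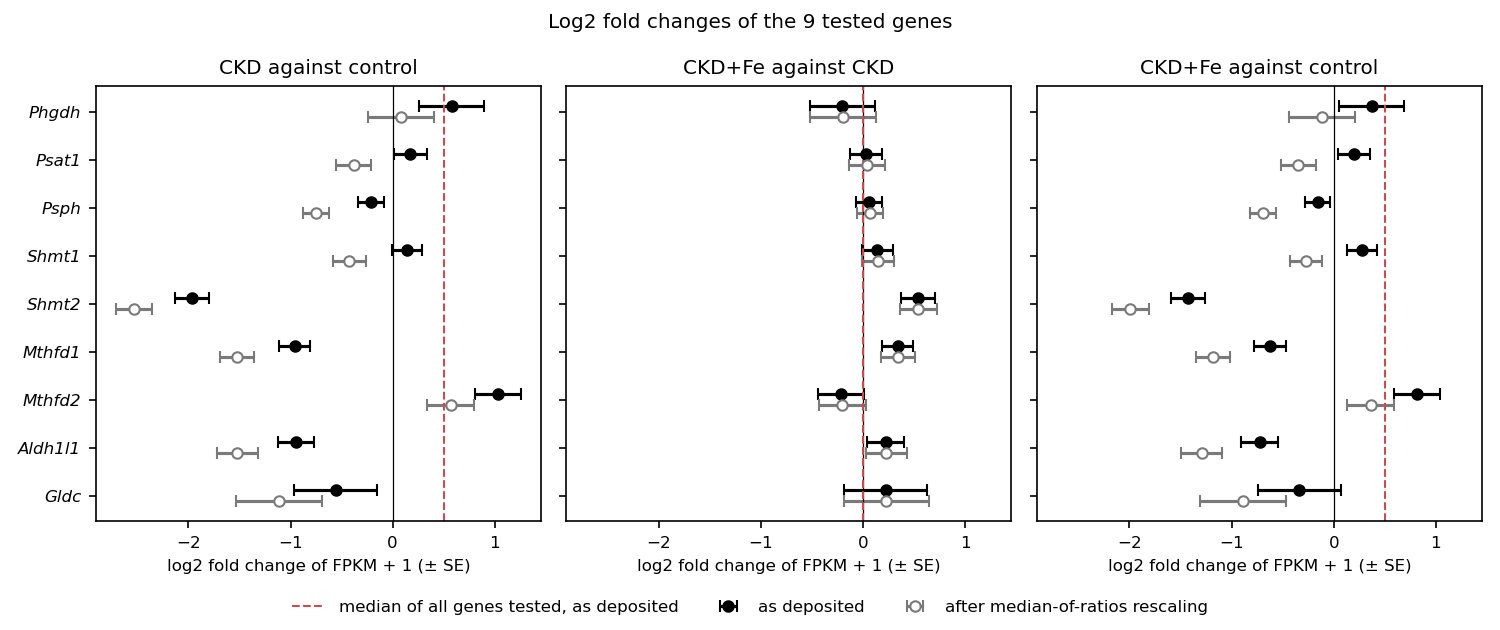
Log2 fold changes of FPKM + 1 with standard errors (x axis) for the 9 tested genes (y axis) in the 3 comparisons, as deposited (filled) and after median-of-ratios rescaling (open), with the median of all genes tested as a dashed line. In CKD against control Shmt2 lies at -1.96 and Mthfd2 at 1.03, and in CKD+Fe against CKD all 9 lie between -0.22 and 0.53.

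The second comparison, CKD+Fe against CKD, asks whether iron dextran moved these genes on the adenine diet. None of the 9 tested genes was called by limma in either direction, where 0.00761% of all genes (1 gene) were called higher and 0.0% lower. None separated the groups without overlap, where 1.35% of all genes did so upward and 1.08% downward. At an unadjusted p under 0.05, 2 of the 9 genes were higher and none lower, where 3.28% of all genes were higher and 2.73% lower. Without the 3 mice that lay apart 4 were higher and none lower, where 8.06% of all genes were higher and 11.8% lower. Median-of-ratios rescaling, like quantile normalization, left 1 of them and called none.

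Shmt2 came nearest. It read 47.2, 43.9, 47.4 and 39.2 FPKM in CKD+Fe mice 042702, 062910, 111710 and 122320, and 3 of these were above every CKD mouse. The log2 fold change was 0.53 (SE 0.17, unadjusted p = 0.00631, limma adjusted p = 0.502), and among the alternatives the lowest adjusted p was 0.0721, with array quality weights. Mthfd1 read 36.8, 46.6, 55.6 and 47.0 FPKM with iron, and here too all but 1 mouse, 042702, were above every CKD mouse. The log2 fold change of Mthfd1 was 0.34 (SE 0.15, unadjusted p = 0.0448, limma adjusted p = 0.824).

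The other genes overlapped with CKD. Aldh1l1 read 88.4, 114, 120 and 135 FPKM with iron, 0.22 above CKD on the log2 scale (SE 0.18, limma adjusted p = 0.958). Without the 3 mice that lay apart Aldh1l1 was 0.42 above CKD (unadjusted p = 0.0351, limma adjusted p = 0.217). Mthfd2 read 6.96, 7.80, 5.26 and 5.09 FPKM, with a log2 fold change of -0.22 (SE 0.22, limma adjusted p = 0.976), and Phgdh 8.96, 7.74, 6.42 and 6.34 FPKM, with -0.21 (SE 0.32, adjusted p = 0.989). These 2 genes had the only negative estimates of the 9. Shmt1 read 23.7, 38.5, 35.4 and 36.6 FPKM with iron, and all but mouse 042702 were above every CKD mouse. Its log2 fold change was 0.14 (SE 0.15, limma adjusted p = 0.977), and 0.25 (unadjusted p = 0.0287, adjusted p = 0.201) without the 3 mice that lay apart. Psat1 spanned 19.9 to 30.0 FPKM, Psph 10.4 to 13.9, Gldc 17.8 to 37.0 and Aldh1l2 0.587 to 0.825 in CKD+Fe mice.

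The third comparison, CKD+Fe against control, shares its control mice with the first and its CKD+Fe mice with the second, so the values are given only side by side. Shmt2, Mthfd1 and Aldh1l1 were lower by limma and Mthfd2 was higher, where 54.4% of all genes were called higher and 11.0% lower. The log2 fold changes were -1.43 for Shmt2 (SE 0.17, adjusted p = 1.20e-05), -0.62 for Mthfd1 (SE 0.15, adjusted p = 0.00284) and -0.73 for Aldh1l1 (SE 0.18, adjusted p = 0.00309), against -1.96, -0.96 and -0.95 for CKD. For Mthfd2 the log2 fold change was 0.81 (SE 0.22, limma adjusted p = 0.00598) against 1.03 for CKD, and it was not called after rescaling (0.36, adjusted p = 0.194). After rescaling no member was called higher and 4 were called lower, Psph among them (-0.69, adjusted p = 0.00052, against -0.16, adjusted p = 0.282, as deposited), where 27.7% of all genes were higher and 27.5% lower. Quantile normalization ended the call of Aldh1l1 (-0.49, limma adjusted p = 0.0583). Without the 3 mice that lay apart, Phgdh (0.70), Psat1 (0.41) and Shmt1 (0.46) were called higher as well. In that setting 7601 of 13148 genes were called higher, and the median change of all genes was 0.48.

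The balance of mitochondrial and cytosolic enzyme was taken within each mouse. A ratio of FPKM does not depend on scaling between mice, but the log2 ratios tested are of FPKM + 1 and so are held down where a gene is low. The balance restates the values above as 1 number per mouse and pair, and was tested with an exact two-sided permutation test over the 70 arrangements of 4 mice against 4, where the smallest p is 0.0286. The ratio of Shmt2 to Shmt1 FPKM ran from 4.01 to 5.18 in control mice, from 0.773 to 1.47 in CKD mice and from 1.07 to 1.99 in CKD+Fe mice. Mitochondrial transcript thus exceeded cytosolic transcript in every control mouse, and the 2 were close to even in CKD mice.

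The log2 ratio of Shmt2 to Shmt1 was lower in CKD than in control mice (difference -2.098, exact permutation p = 0.0286, adjusted over 9 tests p = 0.0429). Mthfd2 to Mthfd1 moved the opposite way, from 0.0303 to 0.0774 in control mice to between 0.124 and 0.284 in CKD mice, a log2 difference of 1.99 (exact p = 0.0286, adjusted p = 0.0429). Aldh1l2 to Aldh1l1 was at most 0.00167 in control mice and at least 0.00398 in CKD mice, a log2 difference of 1.33 (exact p = 0.0286, adjusted p = 0.0429), which was 2.15 with a pseudocount of 0.1. All 3 ratios separated CKD from control without overlap, Shmt2 to Shmt1 downward and the other 2 upward. Of single genes, 44.6% were higher and 10.4% lower without overlap. Ratios of other gene pairs were not computed, so how often they separate is unknown.

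In CKD+Fe mice the ratios differed from control by -1.70, 1.44 and 1.19 in the same order of pairs, each without overlap (exact permutation p = 0.0286, adjusted p = 0.0429), and the last was 2.105 with a pseudocount of 0.1. CKD+Fe and CKD overlapped in all 3, with differences of 0.39 (exact permutation p = 0.2), -0.55 (exact p = 0.143) and -0.15 (exact p = 0.543).

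**Figure D4:**
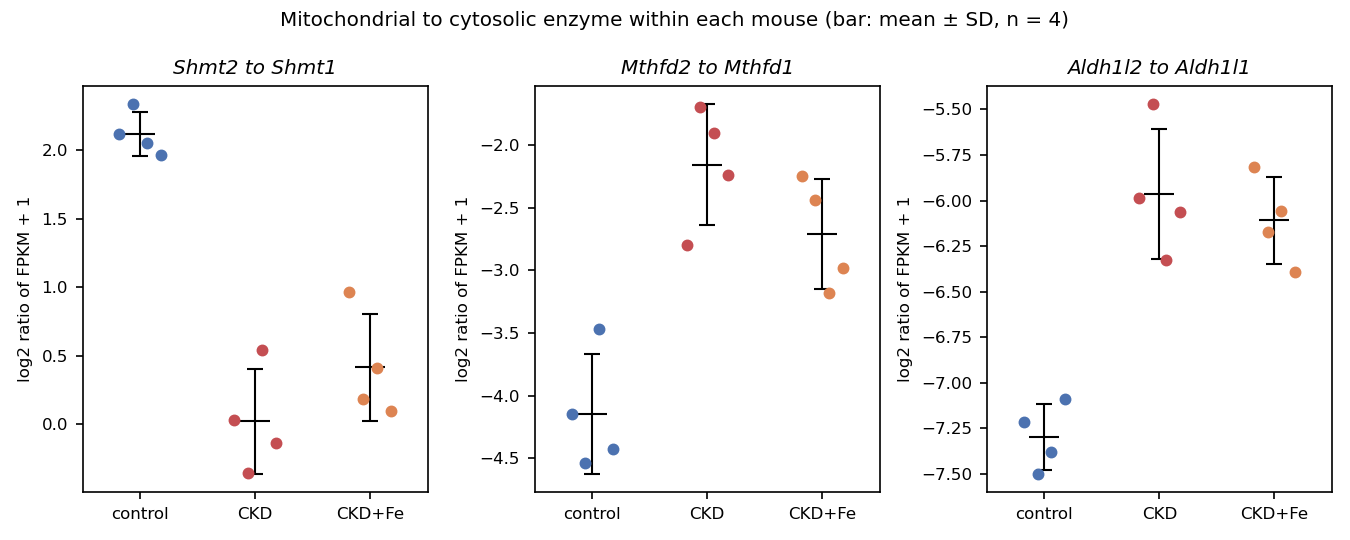
Log2 ratio of FPKM + 1 of the mitochondrial to the cytosolic enzyme (y axis) in each mouse (points), with the mean ± SD, by group for 3 enzyme pairs. Shmt2 to Shmt1 falls from a mean of 2.12 in control to 0.02 in CKD mice, and the other 2 pairs lie higher in all 8 mice on adenine than in any control mouse.

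The rest of the pathway was read from 5 lists of other genes, of which 72 were tested. Counts in these lists stand against the 54.6% of all genes called higher and 13.3% called lower in CKD against control. Counts after rescaling stand instead against 28.8% called higher and 29.3% called lower. In the list of folate handling and folate enzymes, 5 of 17 tested genes rose and 6 fell in CKD against control, with a median log2 fold change of 0.15 (limma), and 2 rose and 10 fell after rescaling. Slc46a1, the proton-coupled folate transporter, went from 41.5 ± 3.63 to 16.5 ± 7.01 FPKM (log2 fold change -1.36, adjusted p = 0.000157). Folr1, the receptor that takes filtered folate into the proximal tubule, went from 378 to 153 FPKM (-1.28, adjusted p = 0.000109).

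The folate genes that rose most included another mitochondrial enzyme. Mthfd1l, which makes formate in mitochondria, went from 0.802 ± 0.351 to 3.86 ± 1.07 FPKM (log2 fold change 1.42, limma adjusted p = 1.74e-05), and was still called after rescaling (1.09, adjusted p = 0.000146). Ggh, which trims folate polyglutamates, rose by 0.87 (adjusted p = 3.88e-05) and Atic, of purine synthesis, by 0.77 (adjusted p = 2.71e-05), and Atic was not called after rescaling (0.23, adjusted p = 0.057).

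Glycine cleavage and the choline-derived donors moved nearly as 1 block. Of 13 tested genes 12 fell and 1 rose in CKD against control, also after rescaling, with a median log2 fold change of -1.34 as deposited. Dmgdh and Sardh, which demethylate dimethylglycine and sarcosine in mitochondria, had log2 fold changes of -2.35 (limma adjusted p = 2.72e-05) and -2.06 (adjusted p = 6.37e-06). Bhmt2, a homocysteine methyltransferase, fell by 2.11 (adjusted p = 2.34e-05). Amt and Gcsh, partners of Gldc in glycine cleavage, fell too (-0.62, adjusted p = 0.00135, and -1.08, adjusted p = 1.30e-05), and were picked here after their values were seen. Nnmt, which uses methyl groups to methylate nicotinamide, was the gene that rose, from 1.21 to 7.26 FPKM (log2 fold change 1.86, adjusted p = 1.61e-05).

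In the methionine cycle and transsulfuration 1 of 12 tested genes rose and 6 fell, with a median log2 fold change of -0.29. After rescaling 0 rose and 8 fell, with a median of -0.84. Cbs, which condenses serine with homocysteine, went from 116 ± 10.4 to 21.7 ± 10.9 FPKM (-2.48, limma adjusted p = 1.26e-05). Ahcy, which clears S-adenosylhomocysteine, fell by 1.88 (adjusted p = 2.46e-06), and Cth, the next step of transsulfuration, fell by 1.36 (adjusted p = 0.000121). Mtr, methionine synthase, was called higher at 0.47 (adjusted p = 0.0262), but was at 0.03 after rescaling and -0.36 after quantile normalization, neither of them called.

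Serine use and transport split nearly evenly, with 6 of 17 tested genes higher and 5 lower by limma and a median log2 fold change of -0.12. Glyctk, Grhpr and Agxt2, enzymes of glycerate, glyoxylate and beta-amino acid metabolism, had log2 fold changes of -1.86 (adjusted p = 1.90e-05), -1.61 (adjusted p = 1.77e-05) and -1.42 (adjusted p = 0.000426). Slc1a5, a neutral amino acid transporter, rose from 14.6 to 47.9 FPKM (log2 fold change 1.66, adjusted p = 4.27e-06). Sfxn3, a mitochondrial serine carrier, rose from 10.1 to 32.6 FPKM (1.61, adjusted p = 3.05e-06), and Serinc2, named as a serine incorporator, from 24.0 to 62.8 FPKM (1.37, adjusted p = 0.000228). After rescaling 3 genes of this list were higher and 11 lower.

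ATF4 is a stress-responsive transcription factor known to drive Phgdh, Psat1, Shmt2 and Mthfd2. Of its 13 tested list genes, itself included, 7 rose and none fell in CKD against control, with a median of 0.92, and 5 rose and 2 fell after rescaling. The 7 of 13 genes stand against 54.6% of all genes called higher, so the count does not set this list apart. Atf3, a stress-induced factor, rose from 1.25 to 14.8 FPKM (log2 fold change 2.79, limma adjusted p = 1.40e-05), Ddit4 from 10.2 to 41.5 FPKM (1.98, adjusted p = 2.45e-05) and Nupr1 from 34.0 to 92.2 FPKM (1.89, adjusted p = 0.00418). Nupr1 overlapped between groups, with a control mouse at 86.1 FPKM. Atf4 itself stood at 73.2 ± 10.2 FPKM in control and 91.9 ± 32.0 FPKM in CKD mice (0.28, adjusted p = 0.263), and the estimate turned to -0.29 (adjusted p = 0.251) after rescaling. Slc7a5 was not analysed here.

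**Figure D5:**
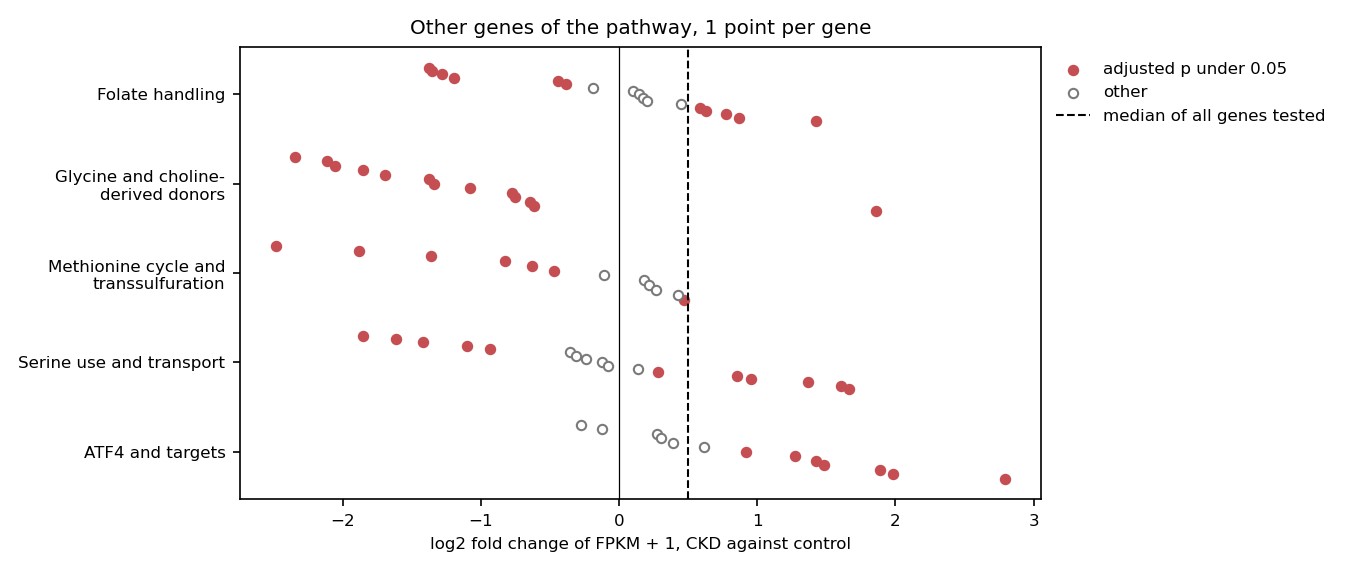
CKD against control as log2 fold change on the FPKM + 1 scale (x axis) for the tested genes of 5 lists (rows), 1 point per gene, filled where the adjusted p was under 0.05, with the median of all genes as a dashed line. Of 13 glycine and choline-derived donor genes 12 lie below 0, and the 7 filled points of the ATF4 list lie above the median line.

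No gene of these lists was called in CKD+Fe against CKD by limma. At an unadjusted p under 0.05, 4 of the 13 glycine and choline-derived donor genes were higher and none lower, Bhmt2 among them at 0.62 (unadjusted p = 0.0422, adjusted p = 0.818). In serine use and transport 1 gene was lower at that level, and in the other 3 lists no gene passed it. Over all genes tested, 3.28% were higher and 2.73% lower at that level.

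The genes most like each member over the 12 mice were found by the root mean square difference of z scores of log2(FPKM + 1), where 0 is an identical pattern. Shmt2 lay nearest to Abhd14b (0.124) and Xylb (0.168), and Aldh1l1 to Alpl (0.262) and Pcx (0.288). Sod2 was among the genes nearest to Mthfd1 (0.205). Mthfd2 lay nearest to Rnf122 (0.212) and Myc (0.217), and Phgdh to Eftud2 (0.329) and Chst8 (0.346). The nearest genes of Psat1, Kcne1 (0.423) and Scnn1g (0.591), and of Psph, Shmt1 and Gldc were farther, from 0.460 upward for Shmt1 and Afp. Among the members themselves the closest pair was Mthfd1 with Aldh1l1 (0.377), followed by Shmt2 with Mthfd1 (0.386), and Mthfd2 was closest to Phgdh (0.592).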

How the data were processed

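RNA sequencing of whole kidney from 12 mice was analysed. According to the labels and the methods of the study, libraries were made with a stranded mRNA kit and sequenced as single-end reads, and the submitters' processing notes name bcl2fastq 2.19, STAR 2.5.2, Cufflinks 2.1.1 and GRCm38. The authors deposited FPKM per gene and mouse. FPKM are not counts, so the study's DESeq2 test could not be run, the depth in reads is unknown and no counting error can be given. The strand setting of the counting is not given in the sources used here. Mthfd2 and Aldh1l1 overlap other annotated genes on the same strand and most other members overlap a gene on the opposite strand. A failed estimate was marked for 30 values in 17 genes, which were set to missing.

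The log2(FPKM + 1) values were tested in limma 3.58.1 (R 4.3.3, variance trend, all 12 mice in 1 fit, two-sided, Benjamini-Hochberg over the 13148 genes that reached 1 FPKM in 4 or more mice, threshold 0.05). Fold changes on this scale understate those of low genes. The labels number the mice and do not say that they came from separate litters or cages. Enzyme ratios were computed in Python 3.11.15. Positions are those of the deposited table and GENCODE M21. Alternatives were another pseudocount, other filters, 2 rescalings, only the 2 groups compared, array quality weights, no variance trend, the adjusted cutoff of 0.5 in the study's methods, and leaving out mice.

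All 10 members are named. Of 80 other pathway genes in 5 lists, 79 were in the table and 72 tested, and up to 3 with the largest rise and 3 with the largest fall past the threshold are named per list, plus Atf4. Some genes that these rules name are not reported here. Members, lists and 15 marker lists were chosen with earlier results of these data known. The marker lists not described above gave, as called higher and lower in CKD, 1 and 0 of 4 for thick ascending limb, 0 and 4 of 8 for distal tubule and collecting duct, 2 and 0 of 5 for podocyte, 0 and 1 of 6 for endothelial, 7 and 0 of 7 for fibroblast, 4 and 0 of 5 for T and B cell, 7 and 0 of 7 for tubule injury, 0 and 1 of 9 for urothelium and papilla, 1 and 2 of 4 for liver and 0 and 0 of 4 for erythroid genes, with none of the adipocyte or adrenal genes tested.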

Additional observations from a re-analysis of the deposited data

Results flagged for a closer look

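5 values stood far from the other mice of their group, with a gap to the next mouse that was a large part of the group's range (Dixon's rule). They came from 39 groups of 4 mice screened, of which chance flags about 1 in 20. Phgdh was at 14.3 FPKM in control mouse 042301, the mouse with high collecting duct and papilla genes, where the next control mouse read 4.15 FPKM. Phgdh was also at 11.9 FPKM in CKD mouse 110310, next to 7.84 FPKM. Psat1 was lowest in CKD+Fe mouse 042702 at 19.9 FPKM, where the next mouse read 28.5 FPKM. Aldh1l1 was highest in control mouse 012822 at 224 FPKM, above 179 FPKM. Aldh1l2 was at 0.825 FPKM in CKD+Fe mouse 111710, above 0.621 FPKM. 3 of the 5 belong to the 3 mice that lay apart from their groups over all genes.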

How the results depend on the processing

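The falls of Shmt2, Mthfd1 and Aldh1l1 in CKD against control kept their direction and side of the threshold under every alternative run. The count of members called higher in CKD against control (1) was 2 without the filter on low values, where 7873 of 22036 genes were called higher. It was 0 after quantile normalization (3060 of 13148 genes), 2 with array quality weights (7994) and 4 at an adjusted p under 0.5 (9083). Without the 3 mice that lay apart it was 2 (7811), and with 1 mouse left out it was 1 to 2. The count called lower (3) was 6 after median-of-ratios rescaling and 5 at 0.5, where 3856 and 2681 of 13148 genes were called lower. It was 4 after quantile normalization, with Psph joining (-0.71, limma adjusted p = 0.000602), where 3363 genes were called lower. With 1 mouse left out it was 3 to 4. In CKD+Fe against control the count called higher (1) was 2 without the filter, where 7713 of 22036 genes were called higher. It was 0 after median-of-ratios rescaling (3636 of 13148 genes) and after quantile normalization (2605). It was 4 with weights (8273), 4 at 0.5 (9224) and 4 without the 3 mice (7601), and 1 to 2 with 1 mouse left out. The count called lower (3) was 4 after median-of-ratios rescaling and 5 at 0.5, where 3618 and 2388 of 13148 genes were called lower. Without the filter 1 more gene, Aldh1l2, is tested, and 0.5 is a looser threshold. After quantile normalization the count called lower in CKD+Fe against control was 3, with Psph in place of Aldh1l1 (-0.49, adjusted p = 0.0583). With a pseudocount of 0.1 the log2 ratio difference of Aldh1l2 to Aldh1l1 against control was 2.15 in CKD and 2.105 in CKD+Fe, since a smaller pseudocount holds a low gene down less. For the other changes the cause was not tested.

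Among the members and the other genes named here, estimates that changed sign were not called as deposited, except that of Mtr. Against control, median-of-ratios rescaling gave -0.42 for Shmt1 and -0.38 for Psat1 in CKD, and -0.27 for Shmt1, -0.11 for Phgdh and -0.35 for Psat1 in CKD+Fe, and -0.29 for Atf4 in CKD. Quantile normalization gave -0.12 for Shmt1, -0.15 for Phgdh, -0.14 for Psat1 and -0.36 for Mtr in CKD, and -0.34 for Phgdh and -0.11 for Psat1 in CKD+Fe. In CKD+Fe against CKD, leaving out 1 mouse moved Psat1 between -0.0647 and 0.163 and Gldc between -0.0255 and 0.624. Mtr also lost its call when any of 6 single mice was left out.

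Without the 3 mice, 3 against 3 cannot give an exact p under 0.1, and the log2 ratio differences in CKD and in CKD+Fe against control were -2.29 and -1.91 for Shmt2 to Shmt1, 2.13 and 1.51 for Mthfd2 to Mthfd1, and 1.43 and 1.06 for Aldh1l2 to Aldh1l1. With 1 mouse left out, Mthfd2 to Mthfd1 in CKD+Fe against control ran from 1.28 to 1.66, with an exact p of at most 0.0571, and Aldh1l2 to Aldh1l1 in CKD+Fe against CKD from -0.268 to 0.0172. No paired analysis was possible because the groups share no replicate numbers.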
